A study of Mus musculus with 8 samples.

Results

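The 10 genes described here mark microglia, and were measured in photoreceptor cells of the mouse retina. They were the receptors Csf1r, Cx3cr1, P2ry12 and Trem2, the Trem2 partner Tyrobp, the 3 chains of complement C1q (C1qa, C1qb and C1qc), the lysosomal protease Ctss and the cytoplasmic protein Aif1. They were found by matching the RefSeq accession of each probe to these 10 symbols, which gave 12 probes of the 56605 on the array, and 10 of the 22911 genes named there. Csf1r and Cx3cr1 had 2 probes each, and a gene with 2 is given by the one with the higher mean over the 8 arrays.

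The study compared 2 genotypes. The cells came from mice of strain C57BL/6 at postnatal day 8 (P8), the age at which rods are still maturing, and were either heterozygous (HZ, 4 arrays) or homozygous (KO, 4 arrays) for a knockout of Lpcat1. Lpcat1 is an acyltransferase that makes phosphatidylcholine, the knockout was present in every cell of the animal, microglia included, and both groups carried at least 1 knockout allele, since no wild type array was analysed here. Retinas were dissociated with trypsin, and cells bearing CD73, a surface protein of rod precursors, were bound to magnetic beads and kept. The line had been bred so that no animal was homozygous for rd8, a retinal mutation of some substrains. The labels name 4 replicates a group and do not say that each came from its own animal, so that the p-values measure the spread between these samples.

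Microglia are the resident macrophages of the retina and brain. They depend on signalling through Csf1r, watch their surroundings through Cx3cr1 and P2ry12, and take up debris through Trem2, which signals through Tyrobp. In the developing retina they engulf dying neurons and weak synapses, and the C1q that they make can tag a synapse for removal. None of the 10 genes is used as a marker of photoreceptors. In RNA from a bulk preparation, fewer microglia and less RNA per microglial cell cannot be told apart.

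Values are log2 of the processed signal minus log2 of the 75th percentile of the signals on the same array, called the normalized log2 signal, so that 0 stands for the 75th percentile and a difference of 1 for a doubling. The 75th percentile lay between 882 and 1024 intensity units, between 59.5% and 63.8% of the probes on each array were well above background, and no spot was saturated. All 17 rod marker genes were well above background on 8 arrays. The labels were not told apart by the probe for Lpcat1, with a KO minus HZ difference of -0.037 ± 0.11 (SE, n = 4 a group, limma adjusted p = 0.930), and whether it lies in the deleted part of the gene was not determined. The groups are therefore given as the arrays labelled HZ and KO. All lay on 1 slide, those labelled KO in its row 1 and those labelled HZ in its row 2, so that position and genotype cannot be told apart. HZ replicate 4 stood apart from the other arrays labelled HZ. Non-uniform spots numbered 458 there and 2 to 22 on HZ replicates 1 to 3, and for most of the genes below it lay among the arrays labelled KO. No spot of the 12 probes was marked as an outlier on any array, the part of the non-uniform spots in its values was not tested, and the counts that lead the results are given with and without HZ replicate 4.

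The promoters of 3 genes are shown as examples. They were among the 9 genes in which HZ replicates 1 to 3 were the 3 lowest arrays and KO replicate 1 the highest. The 3 shown all hold the letters marked below, while Cx3cr1, which had the same array pattern, does not. The display therefore does not link these letters to the pattern. C1qb and C1qc are neighbours, with C1qa, on chromosome 4, and Ctss lies on chromosome 3. The 250 bases before the RefSeq start of each are given 5' to 3' on the strand of the gene, from assembly GRCm38.p6, with GAGGAA, or its reverse complement TTCCTC, in capitals. These letters are the core of a site for PU.1, the transcription factor that macrophages and microglia need.
C1qb, chr4:136886201-136886450, minus strand: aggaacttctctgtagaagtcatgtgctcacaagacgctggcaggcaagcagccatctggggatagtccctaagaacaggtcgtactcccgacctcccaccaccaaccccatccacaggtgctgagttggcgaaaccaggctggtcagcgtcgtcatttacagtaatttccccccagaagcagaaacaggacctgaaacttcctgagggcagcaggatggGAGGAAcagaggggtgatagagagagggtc
C1qc, chr4:136892915-136893164, minus strand: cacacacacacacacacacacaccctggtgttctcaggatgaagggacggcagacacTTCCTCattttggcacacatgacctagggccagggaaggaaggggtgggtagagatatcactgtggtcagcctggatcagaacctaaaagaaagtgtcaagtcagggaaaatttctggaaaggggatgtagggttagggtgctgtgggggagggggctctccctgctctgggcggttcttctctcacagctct
Ctss, chr3:95526536-95526785, plus strand: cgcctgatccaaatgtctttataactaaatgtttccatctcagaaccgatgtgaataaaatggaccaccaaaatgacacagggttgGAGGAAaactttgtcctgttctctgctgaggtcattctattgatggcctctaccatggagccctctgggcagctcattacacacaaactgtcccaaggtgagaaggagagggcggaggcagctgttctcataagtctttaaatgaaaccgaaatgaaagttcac
Such a window was held for 7 of the 10 genes, all except Csf1r, C1qa and Tyrobp. GAGGAA was found, on either strand, in 5 of the 7 (C1qb, C1qc, Ctss, Aif1 and Trem2), and in 23.3% of all 32851 windows of this length. It was not among the letters of the P2ry12 and Cx3cr1 windows. The longer GAGGAAGT, which holds GAGGAA, was found in 1 of the 7 (C1qc) and in 2.44% of all windows. The matches are letters in a window, not measured sites.

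All 10 genes had a higher mean on the arrays labelled KO than on those labelled HZ. The difference lay between 0.37 for Csf1r and 0.93 for Cx3cr1, a fold of 1.29 to 1.90, and its median was 0.849. Over all 34281 probes tested, 50.5% were higher on the arrays labelled KO, and the median was 0.0023. No difference passed a limma adjusted p of 0.05. With limma and Benjamini-Hochberg adjustment over all probes tested, 0 of 10 genes passed a fold of 1.2 at an adjusted p of 0.05 (0% of all probes were called higher) and 0 of 10 passed the looser fold of 1.5 at an adjusted p of 0.5 (0.228%). At an unadjusted p of 0.05, 4 of 10 passed (4.69%), and 1 of 10 by the methods' t-test, which likewise called 0 after adjustment. With the replicate number as a block, 1 of 10 (Cx3cr1) passed an unadjusted p of 0.05 in limma (5.83% of all probes), and 8 of 10 passed the looser thresholds (0.738%). The 2 groups did not separate for any of the 10 genes, where 4.2% of all probes had every array labelled KO above every array labelled HZ. Exact permutation tests of single genes, two-sided, gave p = 0.0857 to 0.2, where 4 arrays against 4 allow no less than 0.0286. These permutations did not keep the pairing of arrays by replicate number that is described below.

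**Figure D1:**
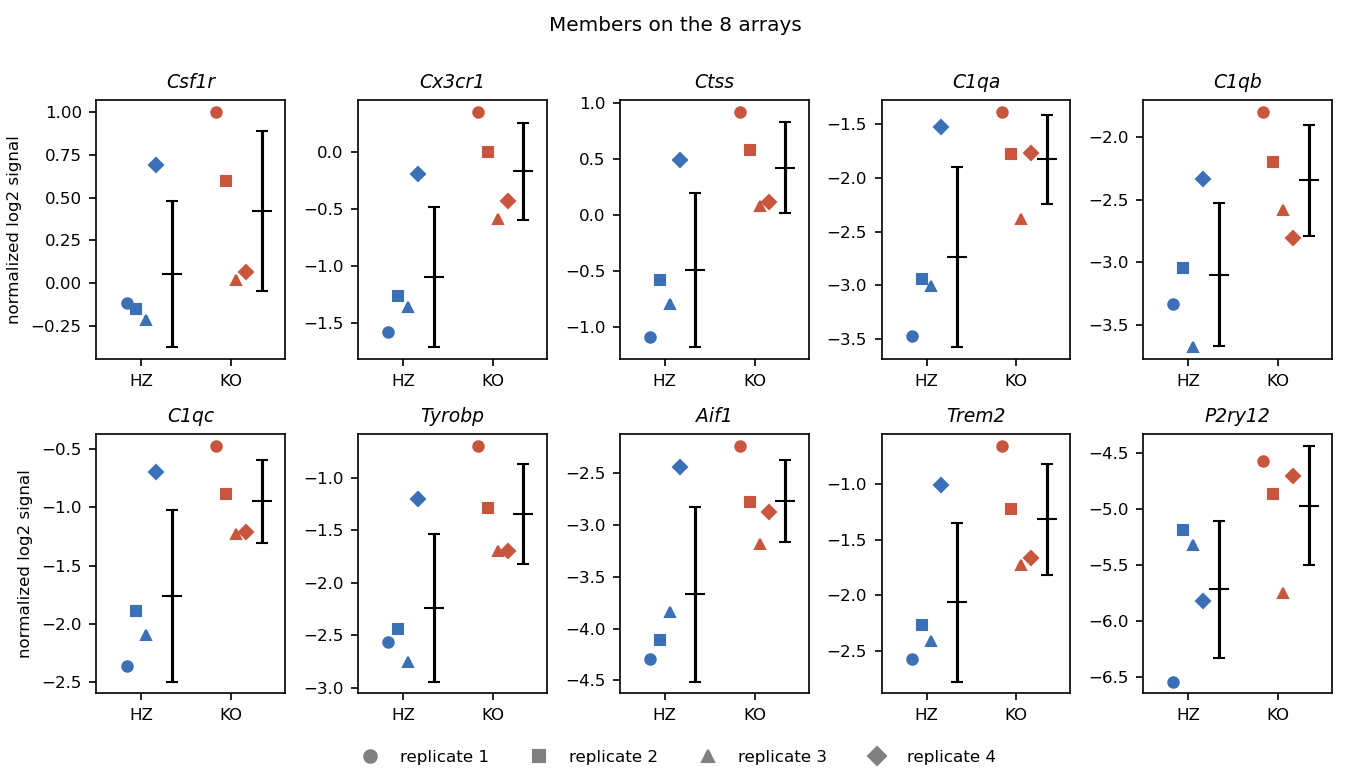
Normalized log2 signal (vertical axis, each panel with its own scale) of the 10 genes on the 4 arrays labelled HZ (blue) and the 4 labelled KO (red). The shape of a point gives the replicate number, and the black bars give the mean and SD of each group. In 9 panels HZ replicate 4 lies well above HZ replicates 1 to 3, and KO replicate 1 is the highest array in all 10.

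Among the receptors, Cx3cr1, the receptor for the neuronal chemokine fractalkine, gave the largest difference. Its normalized log2 signal was -1.58, -1.26, -1.36 and -0.19 on HZ replicates 1 to 4, and 0.35, -0.0013, -0.59 and -0.43 on KO replicates 1 to 4. HZ replicates 1 to 3 were low, while HZ replicate 4 lay within the range of the arrays labelled KO. The difference was 0.93 ± 0.33 (SE, n = 4 a group, limma adjusted p = 0.539). The other Cx3cr1 probe likewise had HZ replicates 1 to 3 below the other 5 arrays, and also a difference of 0.93, with an SE of 0.40 and a limma adjusted p of 0.605.

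Csf1r, the receptor for the growth factors Csf1 and Il34 on which microglia depend, gave the smallest difference. Its signals were -0.12, -0.15, -0.22 and 0.69 on HZ replicates 1 to 4 and 1.00, 0.60, 0.020 and 0.065 on KO replicates 1 to 4. HZ replicate 4 was here above all arrays except KO replicate 1. The difference was 0.37 ± 0.28 (SE, n = 4 a group, limma adjusted p = 0.737). Leaving out HZ replicate 4 raised it to 0.58, leaving out KO replicate 1 lowered it to 0.175, and normexp background correction of the unsubtracted signal gave 0.23. Normexp was run with an offset of 50 intensity units added to each signal, which by itself makes log2 differences of dim probes smaller. The other Csf1r probe did not follow the array pattern of the first. Its signals were -1.23, -1.499, -1.28 and -1.30 on HZ replicates 1 to 4 and -1.14, -2.37, -1.28 and -1.88 on KO replicates 1 to 4, so that KO replicate 2, high on the first probe, was the lowest array on the second. The difference on that probe was -0.34 ± 0.26 (SE, n = 4 a group, limma adjusted p = 0.737), and the mean of both probes gave a difference of 0.015. The direction for Csf1r therefore depends on the probe.

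Trem2, a receptor for lipids and lipoproteins that drives phagocytosis, was measured at -2.57, -2.27, -2.41 and -1.01 on HZ replicates 1 to 4 and at -0.66, -1.22, -1.73 and -1.67 on KO replicates 1 to 4. Tyrobp, the membrane adaptor through which Trem2 signals, was measured at -2.56, -2.44, -2.75 and -1.20 on HZ replicates 1 to 4 and at -0.70, -1.29, -1.70 and -1.70 on KO replicates 1 to 4. Receptor and adaptor shared their order of arrays at the high end, with KO replicate 1 first, then HZ replicate 4 and then KO replicate 2. The differences were 0.75 ± 0.38 for Trem2 and 0.89 ± 0.37 for Tyrobp (SE, n = 4 a group), with limma adjusted p of 0.648 and 0.597.

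P2ry12, the nucleotide receptor that sets homeostatic microglia apart from other macrophages, was the least often detected of the 10. It was well above background on 4 arrays (HZ replicates 2 and 3 and KO replicates 1 and 4), while each of the other 11 probes was so on 8 arrays. Its signals were -6.54, -5.19, -5.33 and -5.82 on HZ replicates 1 to 4 and -4.57, -4.87, -5.75 and -4.70 on KO replicates 1 to 4. HZ replicate 4 was below HZ replicates 2 and 3 here, unlike in the other 9 genes. The difference was 0.75 ± 0.35 (SE, n = 4 a group, limma adjusted p = 0.635). It was 0.47 without HZ replicate 1 and 0.13 with normexp, where the added offset makes differences of so dim a probe smaller.

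The 3 C1q chains form the molecule that starts the classical complement pathway, and each is needed for it. C1qa was measured at -3.48, -2.94, -3.01 and -1.53 on HZ replicates 1 to 4 and at -1.38, -1.77, -2.38 and -1.76 on KO replicates 1 to 4. For C1qb the signals were -3.33, -3.05, -3.68 and -2.34 in HZ and -1.80, -2.20, -2.58 and -2.81 in KO, in the same order of replicates. For C1qc they were -2.36, -1.88, -2.10 and -0.69 in HZ and -0.47, -0.88, -1.23 and -1.21 in KO. In each chain HZ replicates 1 to 3 were the 3 lowest arrays, KO replicate 1 was the highest, and HZ replicate 4 lay above KO replicates 3 and 4. The differences were 0.91 ± 0.41 for C1qa, 0.75 ± 0.32 for C1qb and 0.81 ± 0.36 for C1qc (SE, n = 4 a group), with limma adjusted p of 0.619, 0.602 and 0.616. With normexp the C1qa difference was 0.60.

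Ctss, a cysteine protease of the microglial lysosome, was measured at -1.09, -0.59, -0.79 and 0.49 on HZ replicates 1 to 4 and at 0.92, 0.58, 0.079 and 0.11 on KO replicates 1 to 4. Aif1, which encodes the calcium-binding protein Iba1 used to stain microglia, was measured at -4.30, -4.11, -3.84 and -2.44 on HZ replicates 1 to 4 and at -2.24, -2.78, -3.18 and -2.88 on KO replicates 1 to 4. Both had the same split, with HZ replicates 1 to 3 below the other 5 arrays. The differences were 0.92 ± 0.35 for Ctss and 0.90 ± 0.41 for Aif1 (SE, n = 4 a group), with limma adjusted p of 0.577 and 0.619. With normexp the Aif1 difference was 0.47.

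**Figure D2:**
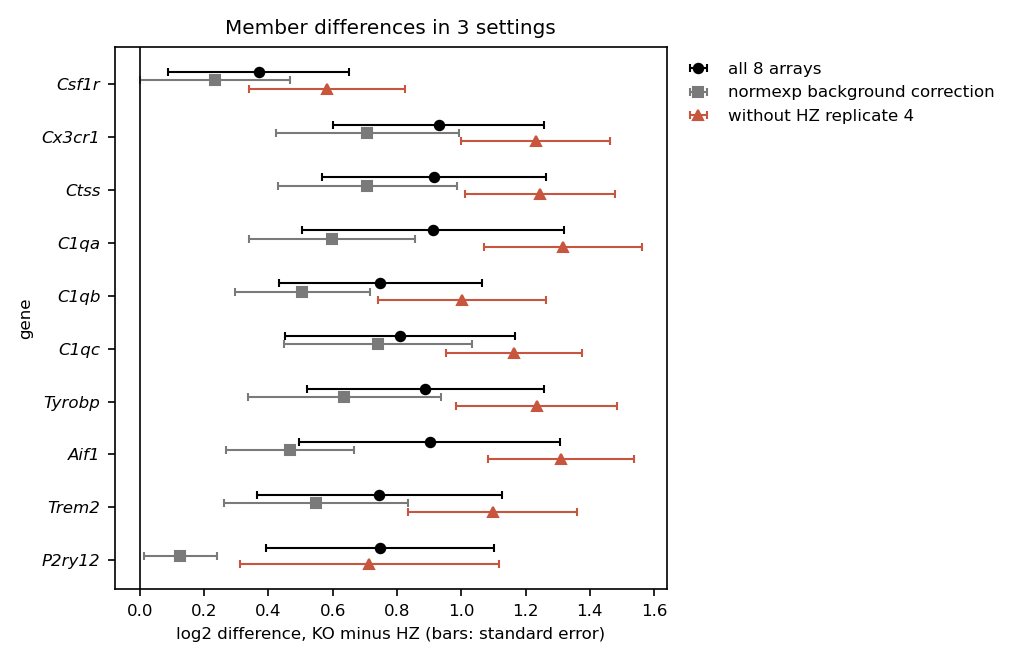
Difference in log2 signal between the arrays labelled KO and HZ (horizontal axis) for each gene (vertical axis), with its standard error, from all 8 arrays (black circles), after normexp background correction (grey squares) and without HZ replicate 4 (red triangles). All points are above 0, and all except that of P2ry12 are farther from 0 without HZ replicate 4 than with it.

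The values turned on HZ replicate 4. It lay 0.856 to 1.64 above the mean of HZ replicates 1 to 3 in 9 genes and 0.13 below it in P2ry12. Without it, the differences lay between 0.58 and 1.32 with a median of 1.198, and 9 of 10 genes separated the 4 arrays labelled KO from the 3 labelled HZ, all except P2ry12 (6.21% of all probes did). Without it 8 of 10 also passed the looser thresholds (0.365% of all probes), 9 of 10 an unadjusted p of 0.05 (4.57%), and 0 of 10 an adjusted p of 0.05 in limma (0%). Leaving out HZ replicate 2 instead, 9 of 10 passed the looser thresholds (1.08% of all probes). The choice to set HZ replicate 4 aside was made after its values were seen.

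The replicate numbers, which are also the columns of the slide, paired the arrays. Within pair 1 all 10 genes were higher on the array labelled KO, by 1.12 to 2.09. Within pair 2 all 10 were higher, by 0.32 to 1.33. Within pair 3, 9 of 10 were higher, with differences from -0.42 for P2ry12 to 1.096 for C1qb. In pair 4 the direction was the other way for 9 of 10 genes, with differences from -0.66 for Trem2 to 1.11 for P2ry12 and a median of -0.46. With the block, 0 of 10 genes passed an adjusted p of 0.05 in limma (0%). With all arrays and no block, normexp gave 4 of 10 past the looser thresholds (0.263% of all probes), eBayes with a trend and robust estimation gave 3 (0.327%), and a filter to probes well above background on all arrays gave 1 of the 9 genes it left (0.246%). Without both arrays numbered 4, 0 of 10 passed the looser thresholds, where 0% of all probes were called higher. The groups still separated in 9 of 10 (7.68% of all probes), and the differences lay between 0.62 and 1.35.

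The 10 genes varied together over the arrays, P2ry12 excepted in the main setting. HZ replicates 1 to 3 were the 3 lowest arrays in 9 of 10 genes, a split found in 436 of the 14840 tested genes (2.94%). The split was taken from the values of these same genes, so that the share describes it and does not test it. KO replicate 1 was the highest in 10 of 10. HZ replicate 4 lay above both KO replicates 3 and 4 in 9 genes and above KO replicate 2 in 6. In 8 genes KO replicates 1 and 2 and HZ replicate 4 all lay above KO replicates 3 and 4, which in turn lay above HZ replicates 1 to 3. Because the arrays fell into a set of 3 and a set of 5, both too small for a correlation of their own, no coefficient over all 8 is given for a pair of genes. Of the 45 pairs, 36 passed an exact permutation test of the correlation at a Benjamini-Hochberg adjusted p of 0.05 over the 45, by Pearson's r and by Spearman's rho alike. These were the 36 pairs without P2ry12, each of which holds that split. With normexp 44 of the 45 pairs passed, pairs with P2ry12 among them, so that its exception depends on the background step. Summed over the 10 genes, the linear signal in units of the 75th percentile was 2.51, 2.98, 2.70 and 6.20 on HZ replicates 1 to 4 and 8.07, 6.08, 4.26 and 4.53 on KO replicates 1 to 4. HZ replicate 4 was thus 2.27 times the mean of the other arrays labelled HZ, while the mean of the arrays labelled KO was 1.59 times that of all 4 labelled HZ.

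**Figure D3:**
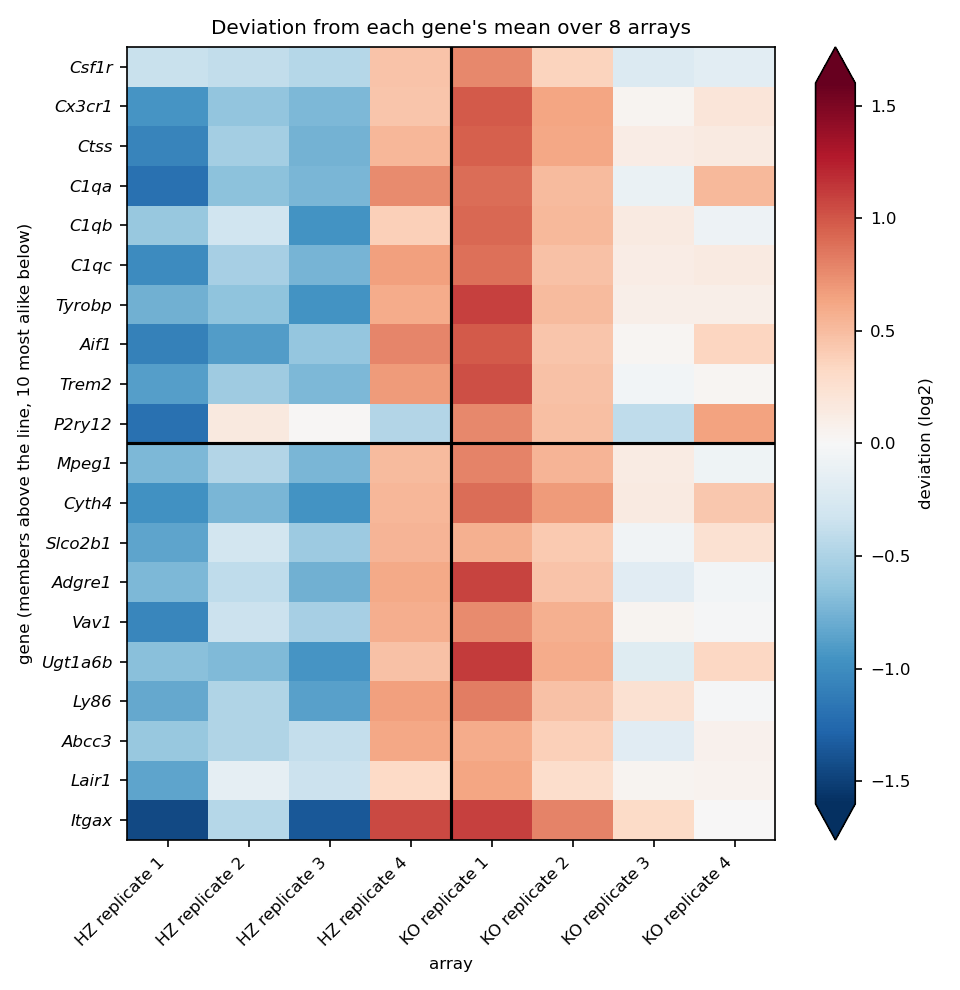
Deviation of the normalized log2 signal from each gene's mean over the 8 arrays, in colour (blue below, red above), for the 10 genes (above the black line) and the 10 genes most like them (below it). The first 3 columns are blue in every gene except P2ry12, and HZ replicate 4 is red in every gene except P2ry12.

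The genes whose signals most resembled these were taken as those with the highest mean Pearson r with the 10, out of 14732 genes over the 8 arrays, as a description with no test. They were Mpeg1, Cyth4, Slco2b1, Adgre1, Vav1, Ugt1a6b, Ly86, Abcc3, Lair1 and Itgax, with mean r from 0.897 to 0.916. Of these 10, 6 were in a list of microglia, macrophage or phagocyte genes drawn up for this purpose. Mpeg1 encodes a pore-forming protein of macrophages, Adgre1 a surface receptor of macrophages, and Itgax an integrin chain of myeloid cells. Ugt1a6b shares its last exons with the other Ugt1a genes, so that its probe may measure them too. The choice by r favours genes with the array order and direction of the 10, and HZ replicates 1 to 3 were the lowest arrays in all 10 genes picked. Their differences lay between 0.43 for Abcc3 and 1.1003 for Itgax, with limma adjusted p from 0.501 to 0.712, and with normexp between 0.15 for Itgax and 0.70 for Mpeg1. Itgax was well above background on 1 array labelled HZ and 3 labelled KO, and the other 9 genes were so on 8 arrays.

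Other microglia and macrophage genes moved less evenly. Of 40 such genes 30 were tested, 25 were higher on the arrays labelled KO, and their median difference was 0.58, or 0.23 with normexp. In 18 of the 30, HZ replicates 1 to 3 lay below the other 5 arrays. Gpr34, P2ry6 and Tmem119 (3 of 30) passed the looser thresholds (0.228% of all probes were called higher) and 0 an adjusted p of 0.05 in limma. At an unadjusted p of 0.05 in limma, 5 were higher (4.69% of all probes). Gpr34, a lysophosphatidylserine receptor, was 1.03 ± 0.27 higher (SE, n = 4 a group, limma adjusted p = 0.434). P2ry6, a receptor for UDP that prompts engulfment, was 1.28 ± 0.33 higher (adjusted p = 0.435). Tmem119, a marker of resident microglia, was 0.76 ± 0.19 higher (adjusted p = 0.410). These 3 were dim. Tmem119 was well above background on 1 array labelled HZ and 3 labelled KO, Gpr34 and P2ry6 on 2 and 4, and with normexp the differences were 0.38 for Gpr34, 0.31 for P2ry6 and 0.19 for Tmem119. Without HZ replicate 4 the median of the 30 was 0.78 and 11 passed the looser thresholds (0.365% of all probes were called higher). Spi1, which encodes PU.1, was well above background on 0 arrays.

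Of 20 lysosomal and phagocytic genes 19 were tested and 12 were higher, with a median of 0.082. None (0 of 19) passed the looser thresholds in limma, though 2 did without HZ replicate 4 (0.365% of all probes were called higher). At an unadjusted p of 0.05 in limma, 1 was higher (4.69% of all probes) and 1 lower (3.49%). The largest differences among those well above background in both groups were those of Gpnmb (-2.21 ± 0.82), a glycoprotein of macrophages and pigmented cells, Lgals3 (1.02 ± 0.55), a galectin, and Spp1 (0.83 ± 1.02), the secreted protein osteopontin (SE, n = 4 a group, limma adjusted p from 0.562 to 0.823). Of 14 genes of border macrophages and monocytes, 9 were well above background on 0 arrays, Mrc1, Lyve1, Cd163 and Pf4 among them, and 3 were tested. These were S100a9, Cd14 and Stab1, with differences of 0.59, 0.30 and 0.14.

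Complement genes outside C1q did not follow the C1q chains. Of 36 such genes 21 were tested, 9 were higher and 12 lower, and the median was -0.041. In 0 of the 21 were HZ replicates 1 to 3 below the other 5 arrays. Of the genes for C1r and for the receptors of C3a and C5a, C1ra and C5ar1 were well above background on 0 arrays and C3ar1 on 1.

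Genes for ligands and partners of the receptors were likewise mixed. Of 11, 8 were tested, 4 higher and 4 lower, with a median of -0.067, and 0 passed the looser thresholds in limma. At an unadjusted p of 0.05 in limma, 0 were higher and 1 lower (3.49% of all probes were lower). Siglech, whose protein pairs with Tyrobp, was at -0.83 ± 0.44, the Trem2 ligand Clu at -0.56 ± 0.15 and the Csf1r ligand Csf1 at 0.36 ± 0.33 (SE, n = 4 a group, limma adjusted p from 0.441 to 0.777). By this probe, Siglech was 1 of the 5 lower genes among the 30 other microglia and macrophage genes tested. The probe was bright, with a mean normalized log2 signal of 4.56 in the HZ group and 3.73 in the KO group. Those of Csf1r were 0.052 and 0.42. The lowest Siglech signal was 2.37, on KO replicate 4. The array held 2 probes for Siglech, and the other is not reported here. Whether the bright probe measures Siglech of microglia was not tested. Il34, the other Csf1r ligand, Cx3cl1, which encodes fractalkine, and Tgfb1 were each well above background on 2 arrays and were not tested.

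Genes of other cell types moved between the same arrays. Of 16 markers of the retinal pigment epithelium (RPE) 15 were tested, 15 of 15 had a lower mean under the label KO (median difference -1.45), and 9 passed the looser thresholds (0.811% of all probes were called lower). Without HZ replicate 4 the median was -1.48 and 3 passed, a count for which the share of all probes called lower is not given here. Among the 9 were Rpe65, the isomerase of the visual cycle, at -2.38 ± 0.54, or -1.46 with normexp, and Rdh5, a retinol dehydrogenase, at -1.68 ± 0.26 (SE, n = 4 a group, limma adjusted p of 0.369 and 0.278). Summed over the list, the linear signal ranged from 17.5 to 43.7 in the HZ group and from 8.25 to 15.4 in the KO group. HZ replicate 4, at 25.0, was within the range of the arrays labelled HZ for the RPE markers, and among those labelled KO for the microglia genes. Of 8 red blood cell genes 2 were tested, Hba-a1 at 1.51 ± 0.58 and Hbb-bt at 1.70 ± 0.69 (SE, n = 4 a group, limma adjusted p of 0.580 and 0.595). Their summed signal ranged from 0.12 to 0.33 in the HZ group and from 0.18 to 1.19 in the KO group, and 4 of the 8 genes were well above background on 0 arrays. Globin genes have near-identical copies that a probe may not tell apart. HZ replicate 4, at 0.14, was low in these. The part of either in the microglia result was not tested.

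The remaining lists shifted less. The 17 rod markers had a median of -0.13, with summed signals of 1367 to 1689 in the HZ group and 1309 to 1525 in the KO group, and Gnb1 and Cnga1 were at -0.73 ± 0.26 and -0.55 ± 0.26 (SE, n = 4 a group, limma adjusted p of 0.545 and 0.633), with Gnb1 at -1.17 with normexp. Of 12 endothelial and pericyte genes 7 were tested, 4 higher and 3 lower, with a median of 0.077. The lowest difference was -0.79. Vwf and Cldn5 were at 1.41 ± 0.65 and 1.24 ± 0.61 (SE, n = 4 a group, limma adjusted p of 0.623 and 0.640). With normexp these 2 differences were 0.37 and 0.60. Detection above background reached 6 arrays for Vwf and 7 for Cldn5, and 4 of the 12 genes reached it on 0 arrays. Of 12 genes of Muller glia and astrocytes 11 were tested, with a median of -0.093. Gfap, the filament protein of reactive glia, was the 1 gene past the looser thresholds (0.228% of all probes were called higher). It was at 0.82 ± 0.16 (SE, n = 4 a group, limma adjusted p = 0.333). Of 12 genes of T cells, B cells and neutrophils 7 were tested, 2 were higher, the median was -0.039, Cd3g and Mpo were at -0.47 ± 0.63 and -0.20 ± 0.28 (SE, n = 4 a group, limma adjusted p of 0.841 and 0.849), and 3 were well above background on 0 arrays.

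**Figure D4:**
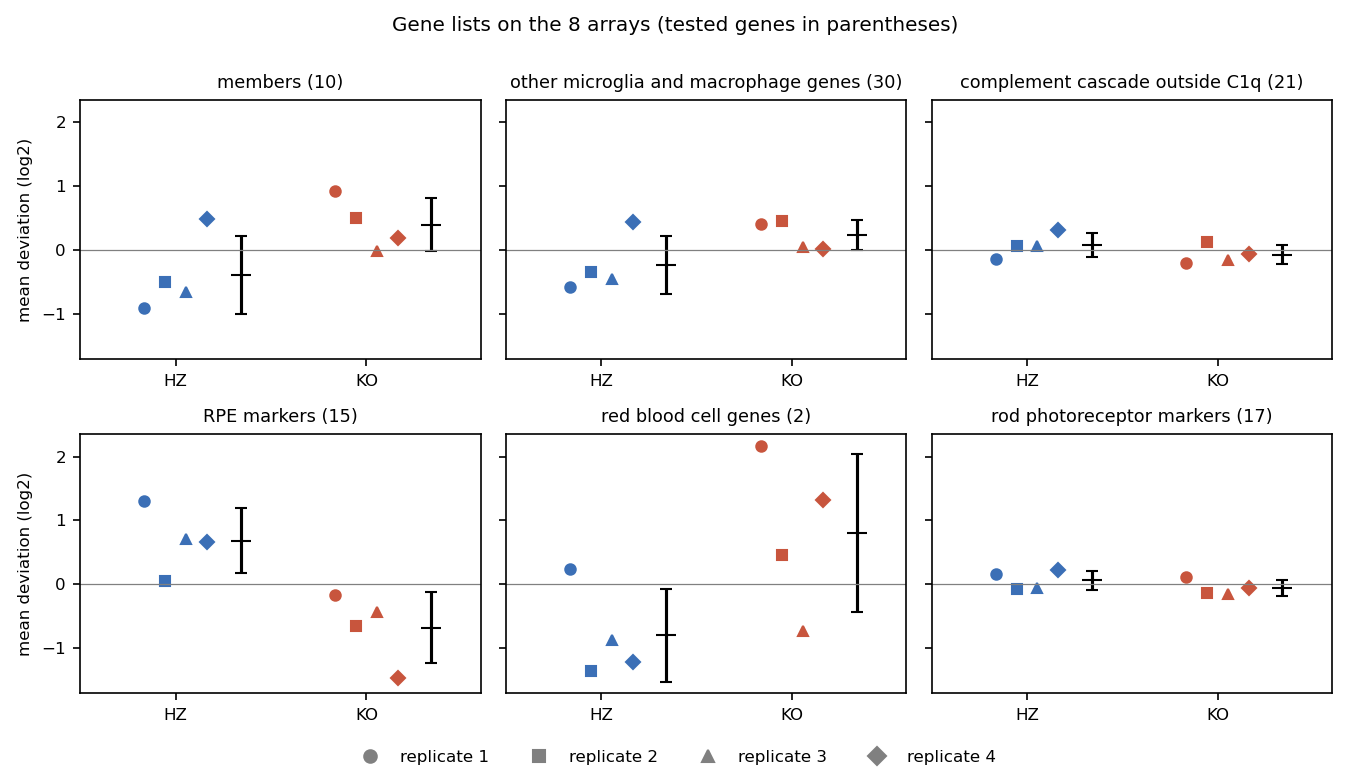
Mean deviation of the tested genes of a list from their own means over the 8 arrays (vertical axis, log2), with 1 panel a list and the number of tested genes in its title, for the arrays labelled HZ (blue) and KO (red). Point shapes give the replicate number and black bars the mean and SD of a group. HZ replicate 4 lies with the arrays labelled KO in both microglia panels and with those labelled HZ in the RPE panel.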

How the data were processed

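RNA of CD73-selected photoreceptor cells was labelled with Cy3 and hybridised to SurePrint G3 Mouse GE 8×60K arrays, 1 sample an array. Per the labels, the deposited signals were extracted with Agilent Feature Extraction 10.7.1.1, and the intensity used (the processed signal) is background-subtracted, with 0 or 1 marks for spots well above background. A table of log2 values that the authors deposited had been put through a 75th percentile shift and centred on each probe's median over the 8 arrays (r of 0.999 or more with the same step here), and served as an alternative. Here log2 of the intensity was shifted by the 75th percentile over the 59305 non-control spots, spots marked as outliers were left out, and spots of 1 probe were averaged. RefSeq accessions named 32994 of 56605 probes (GRCm38.p6 table). A probe was tested when well above background on 4 or more arrays with 3 or more values a group. The test was limma 3.58.1 (R 4.3.3; lmFit and eBayes) over 34281 probes, KO against HZ, with Benjamini-Hochberg adjustment. Of the thresholds named in the methods, a fold of 1.2 at an adjusted p of 0.05 and a fold of 1.5 at 0.5 were used. The fit was tested on simulated data. The number of arrays limits the precision.

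Named were the 10 genes, the 10 with the highest mean r with them, and of each other list those past the looser thresholds or else up to 3 with the largest difference that were well above background on 2 or more arrays of both groups (at most 2 for other cell types). A result that this rule would name in the complement list is not reported here. The 10 genes, the lists and the tests were chosen with earlier results of these data known. Same-numbered arrays deviated together from their group means (r from 0.17 to 0.34 in 4 of 4 pairs, against -0.34 to 0.12 for different numbers), so the numbers pair the arrays. Alternatives were other scalings, background correction (normexp with an offset of 50), filters, tests and arrays.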

Additional observations from a re-analysis of the deposited data

Results flagged for a closer look

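Within a group of 4 arrays, a value was singled out when its gap to the nearest other array, divided by the range, passed the critical value of Dixon's test. Of 48 groups of values tested 3 passed, where chance gives about 1 in 20, or 2.4. The Csf1r signal of HZ replicate 4 was 0.69, and those of HZ replicates 1 to 3 were -0.22 to -0.12. For the endothelial and pericyte genes the mean deviation on KO replicate 1 was -0.43, against 0.36 to 0.41 in the rest of that group. For the Muller glia and astrocyte genes the mean deviation on KO replicate 2 was 0.40, against -0.21 to -0.14 in the rest of that group.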

How the results depend on the processing

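The direction of single genes held in 189 of 189 values over 19 alternatives. Alternatives that change only the test, the block or the filter repeat the difference of the main fit, so many of these values could not differ. The other Csf1r probe by itself, at -0.34, is not among them. The difference for Csf1r was as low as 0.015 for the mean of its probes and that for P2ry12 as low as 0.13 with normexp. The limma or t-test adjusted p lay between 0.331 and 0.990. No alternative brought a gene past an adjusted p of 0.05. The number past the looser thresholds, 0 of 10 with all arrays, was 4 with normexp, 8 with the replicate block, 3 with trend and robust eBayes, 1 among probes well above background on all arrays, and 0 to 9 with each array left out (8 without HZ replicate 4, 9 without HZ replicate 2). The number of genes that separated the groups was 0 to 9 with each array left out (9 without HZ replicate 4 and 1 when KO replicate 3 was left out) and 9 with neither array numbered 4, an alternative chosen after seeing the data. With the replicate block the number at an unadjusted p of 0.05 fell from 4 to 1, and the count past an adjusted p of 0.05 stayed at 0. The median difference stayed between 0.573 and 1.27. The number of correlated pairs, 36 of 45, was 44 with normexp and 36 or 37 with an array left out. The causes were not tested. The signal over background limits P2ry12 above all.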
